A study of Mus musculus with 2 samples.

Results

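The miR-148 and miR-152 family consists of the mature miRNAs cut from the hairpins of miR-148a, miR-148b and miR-152. It was followed here in fibro-adipogenic progenitors (FAPs), mesenchymal cells of skeletal muscle that can become adipocytes or fibroblasts. All rows named for these 3 hairpins were taken, both arms included, which gave 6 of the 628 listed miRNAs: mmu-miR-148a-3p, mmu-miR-148a-5p, mmu-miR-148b-3p, mmu-miR-148b-5p, mmu-miR-152-3p and mmu-miR-152-5p, written below without the species prefix mmu. The FAPs came from wild-type C57Bl/6 mice, were sorted from skeletal muscle by Sca1 and were grown in 20% FBS, 10% HS and 5 ng/ml FGF. They were then kept for 24 h either in basal medium (BM), which held 10% HS, or in adipogenic differentiation medium (ADM), for which the labels list no components. Each medium gave 1 small RNA library, and the number of mice is not given. Every difference below is therefore between these libraries, without a replicate check and without a p-value.

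A miRNA acts through its seed, the bases 2 to 8 from the 5′ end, which pair with sites in target mRNAs. miRNAs with one seed can act on overlapping targets, so their reads can be read together as the supply of that seed. The family is best known for binding the transcripts of DNA methyltransferases, Dnmt1 among them. In human and mouse fat cell precursors miR-148a has been reported to promote adipogenesis, and in liver it lowers the LDL receptor. An arm is the side of a hairpin (5p or 3p) from which a mature miRNA is cut; usually one arm is kept and the other degraded.

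The mature sequences of the 3p arms (RefSeq, GRCm38) are shown because they define the family and are what keeps its members apart in read counting. Capitals mark the seed.
miR-148a-3p: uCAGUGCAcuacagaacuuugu
miR-148b-3p: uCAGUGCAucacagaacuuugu
miR-152-3p: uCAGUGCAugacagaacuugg

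All 3 arms carry the seed CAGUGCA, and no other mature miRNA of the RefSeq table does. Counted from 1 at the 5′ end, miR-148a-3p and miR-148b-3p differ at C9U and U10C and are identical at 20 of 22 bases. miR-152-3p differs from miR-148a-3p at C9U, U10G and U20G (18 of 21 bases identical), and from miR-148b-3p at C10G and U20G (19 of 21). Their separation in the counts thus rests on 2 or 3 bases. The sources used here do not say how mismatched reads were assigned, and its part in the results was not tested.

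The opposite arms are shown to set their seeds beside each other, again in capitals.
miR-148a-5p: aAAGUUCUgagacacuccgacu
miR-148b-5p: gAAGUUCUguuauacacucaggcu
miR-152-5p: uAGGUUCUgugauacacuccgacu

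The 5p arms of miR-148a and miR-148b share the seed AAGUUCU, while miR-152-5p has AGGUUCU. miR-148a-5p and miR-148b-5p are identical at 13 of 22 bases compared from the 5′ end, fewer than their 3p arms.

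The hairpins are shown with both mature arms in capitals, as the arm comparison below turns on them.
miR-148a: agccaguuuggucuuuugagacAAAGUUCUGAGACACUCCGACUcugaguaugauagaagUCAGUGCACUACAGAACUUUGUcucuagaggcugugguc
miR-148b: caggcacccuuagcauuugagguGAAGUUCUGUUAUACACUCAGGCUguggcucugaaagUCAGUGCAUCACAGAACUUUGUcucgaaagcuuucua
miR-152: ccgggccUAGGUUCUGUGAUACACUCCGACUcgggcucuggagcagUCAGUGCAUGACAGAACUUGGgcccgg

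The 3 hairpins lie on different chromosomes in neighbourhoods that resemble each other. The miR-148a hairpin lies at chr6:51269812-51269910 on the minus strand (GRCm38) and overlaps no protein-coding gene in GENCODE M21. The miR-148b hairpin, chr15:103285125-103285221 on the plus strand, is in an intron of Copz1, and the miR-152 hairpin, chr11:96850393-96850465 on the plus strand, is in an intron of Copz2. Copz1 and Copz2 are paralogues that encode zeta subunits of the coatomer, the coat of vesicles between Golgi and endoplasmic reticulum.

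Each hairpin also has a gene of the Nfe2 family of bZIP transcription factors nearby. These are Nfe2l3 at 163 kb from miR-148a, Nfe2 at 26.7 kb from miR-148b and Nfe2l1 at 20.4 kb from miR-152. A gene for a heterochromatin protein of the Cbx family follows the same pattern, with Cbx3 at 200.5 kb, Cbx5 at 45.3 kb and Cbx1 at 41.8 kb. The host genes and these neighbours were not measured in these small RNA libraries.

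The values are percents of the reads that the authors took as 100% in a library, which came to 755193 reads in BM and 790617 in ADM after whole reads were recovered. Levels are also given as RPM, the percent times 10000, so a single read is worth 1.32 RPM in BM and 1.26 in ADM. Intervals are 95% exact intervals (Clopper-Pearson, or conditional for ratios) and cover counting error only, because each medium has 1 library. PCR copies of a molecule could not be told from separate molecules, so the intervals may be too narrow even for counting error. As a check of the cell label, all 9 listed arms of the mesenchymal markers miR-143, miR-145a, miR-199a, miR-199b and miR-214 were above a mean of 10 RPM, with 7.40% of BM and 8.55% of ADM reads in sum. By arm, 6 of the 9 were lower in ADM, 1 of them (miR-199b-5p, log2 ratio -1.05) at least 2-fold, and 0 were at least 2-fold higher. Of all 337 listed miRNAs above that minimum, 20.5% were at least 2-fold lower and 10.7% at least 2-fold higher. The median log2 ratio of the 9 arms was -0.29, and miR-143-3p (0.90) was the most abundant of them in ADM. Of 10 listed arms of muscle markers 4 were above that minimum. All 4 were at least 2-fold lower in ADM, beside the same 20.5%. The summed level of the 10 muscle arms was 0.906% in BM and 0.202% in ADM. Most of it came from miR-486-5p, in a row shared with miR-3107-5p (4509 BM and 1342 ADM reads), and from miR-133a-3p (2266 and 231). The muscle markers miR-206-3p (8 and 1 reads) and miR-1a-3p (4 and 2) were below the minimum. miR-1b-3p, also among these 10 arms, was at 0 in BM. The endothelial markers miR-126-5p and miR-126-3p had 88 reads together in BM and 203 in ADM. The 2 listed haematopoietic arms had 1 and 4 reads in sum, with miR-451a at 0 in BM, and the 3 listed epithelial arms 19 and 16, with miR-200b-3p at 0 in BM and miR-141-3p at 0 in ADM. The summed reads of the muscle and endothelial markers differed between the same libraries as the family did. Their part in the family's values was not tested.

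miR-148a-3p dominated the family and was higher in the ADM library, miR-148b-3p was higher by less, and miR-152-3p was lower. miR-148a-3p counted 25678 reads or 3.40% (interval 3.36 to 3.44%) in BM. In ADM it counted 41635 reads or 5.27% (5.22 to 5.32%), a ratio of 1.55 (1.52 to 1.57). It moved from the ninth to the fourth most abundant of the listed miRNAs. miR-148b-3p was at 1647 RPM in BM (1244 reads) and at 2138 RPM in ADM (1690 reads), a ratio of 1.30 (1.21 to 1.40). miR-152-3p was at 779.9 RPM in BM (589 reads) and at 433 RPM in ADM (342 reads) and was 1.80-fold lower in ADM (1.58 to 2.07). For each of these arms the interval in BM did not overlap that in ADM.

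**Figure D1:**
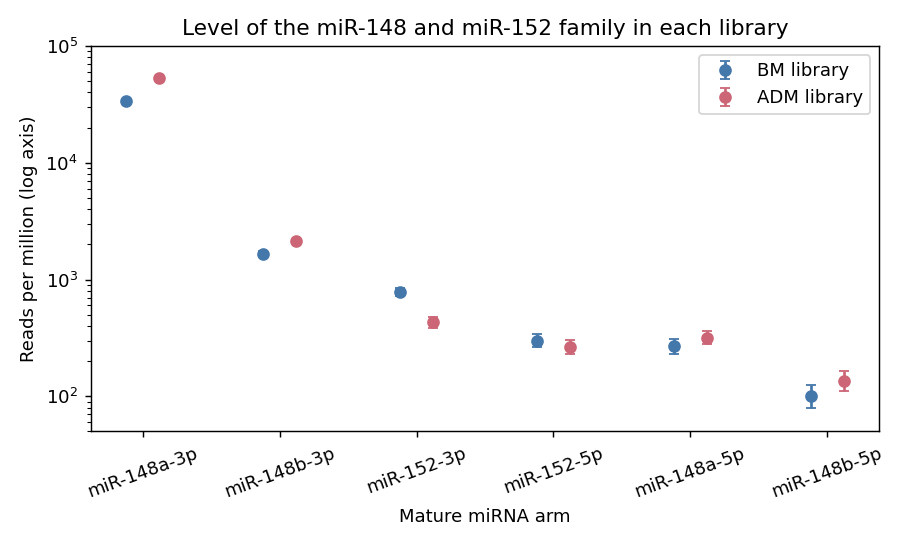
Level of each family arm in RPM, on a log axis, with BM in blue and ADM in red; bars are 95% counting intervals of 1 library each. miR-148a-3p sits above all other arms in both libraries, and miR-152-3p is the 3p arm whose ADM point lies below its BM point.

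The 5p arms were scarce, and their differences were close to counting error. miR-148a-5p was at 267 RPM in BM (202 reads) and at 319 RPM in ADM (252 reads), a ratio of 1.19 whose interval, 0.986 to 1.44, included 1. miR-148b-5p had 76 and 108 reads (101 and 137 RPM), a ratio of 1.36 with an interval of 1.003 to 1.85. miR-152-5p had 227 and 211 reads (301 and 267 RPM), a ratio of 0.888 (0.733 to 1.08). Each 5p arm was on the same side of 1 as the 3p arm of its hairpin, although the intervals of miR-148a-5p and miR-152-5p do not settle that side.

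By level, the order in BM was miR-148a-3p, miR-148b-3p, miR-152-3p, miR-152-5p, miR-148a-5p and miR-148b-5p. In ADM miR-148a-5p stood before miR-152-5p. These neighbours were not separable in either library: there were 0.890 reads of miR-148a-5p per read of miR-152-5p in BM (0.733 to 1.08) and 1.19 in ADM (0.991 to 1.44). All other neighbours in the order were apart by more than counting error. Levels of different miRNAs also carry the preferences of adapter ligation for their sequences. A ratio of the same miRNA between libraries is less affected, because both libraries share that preference.

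The main measure, log2((ADM + 1)/(BM + 1)) in RPM, was 0.63 for miR-148a-3p, 0.38 for miR-148b-3p, -0.85 for miR-152-3p, 0.25 for miR-148a-5p, 0.44 for miR-148b-5p and -0.17 for miR-152-5p. All 6 arms had a mean of at least 10 RPM, as had 337 of the listed miRNAs. None of the 6 was 2-fold apart, while 31.2% of the 337 were, 10.7% higher and 20.5% lower in ADM. At 1.5-fold, miR-148a-3p was higher and miR-152-3p lower, against a background of 53.1% of the 337, made up of 22.3% higher and 30.9% lower. With the trimmed mean of M values, another scaling, miR-148a-3p came to 0.53 and was no longer 1.5-fold apart. A ratio of 1 lay outside the counting interval in 4 of the 6 arms and in 60.2% of the 337, so the family's share is near the background. The median of the family arms was 0.31 and that of the 337 was -0.02. In order of log2 ratio from the highest, miR-148a-3p stood at place 67 of 337, miR-148b-5p at 96, miR-148b-3p at 109, miR-148a-5p at 124, miR-152-5p at 188 and miR-152-3p at 256. The family thus spread over the middle of the distribution and not at its ends.

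**Figure D2:**
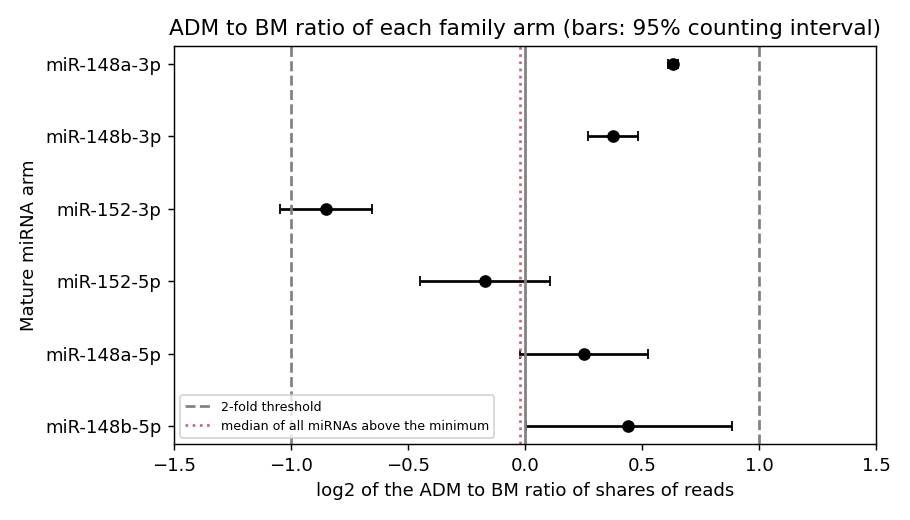
log2 of the ADM to BM ratio of shares for each family arm, with 95% counting intervals, dashed lines at 2-fold and a dotted line at the median of all 337 miRNAs above the minimum. The 4 arms of miR-148a and miR-148b lie to the right of 0 and both arms of miR-152 to the left, and no point passes a dashed line.

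Ratios between members do not depend on how a library is scaled, and here they set miR-152-3p apart from its relatives. There were 43.6 reads of miR-148a-3p per read of miR-152-3p in BM (40.2 to 47.4) and 121.7 in ADM (109 to 136), a 2.79-fold difference (2.44 to 3.20). For miR-148b-3p per miR-152-3p the values were 2.11 in BM (1.91 to 2.33) and 4.94 in ADM (4.40 to 5.57), a 2.34-fold difference (2.004 to 2.73). Between miR-148a-3p and miR-148b-3p the difference was smaller, with 20.6 and 24.6 reads per read (1.19-fold, 1.11 to 1.29). All of these differences were beyond counting error.

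Among the 5p arms, with wider intervals, miR-152-5p was again the relatively lower one. miR-148a-5p per miR-152-5p was 1.34-fold higher in ADM than in BM (1.02 to 1.76), and miR-148b-5p per miR-152-5p 1.53-fold (1.06 to 2.20). miR-148a-5p per miR-148b-5p had a ratio between libraries of 0.878 (0.610 to 1.26), not separable from 1 at this depth. Of the 3 hairpins, then, that of miR-152 gave relatively fewer reads in ADM on both arms.

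Taken as 1 seed, the 3p arms made up 3.64% of the BM library (3.60 to 3.69%) and 5.52% of the ADM library (5.47 to 5.57%), a ratio of 1.52 (1.49 to 1.54). Nearly all of this was miR-148a-3p, with 93.3% of the seed's reads in BM (93.04 to 93.6%) and 95.3% in ADM (95.1 to 95.5%). miR-148b-3p held 4.52% and 3.87% of the seed's reads, and miR-152-3p 2.14% and 0.783%. Without miR-148a-3p, the other 2 arms had 1833 reads in BM and 2032 in ADM, a ratio of 1.06 (0.994 to 1.13) that is not separable from 1. The 5p arms summed to 505 and 571 reads, of which miR-152-5p was 45.0% in BM and 37.0% in ADM.

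Among the 516 listed rows with a RefSeq sequence, which hold 438 seeds, the family's seed stood at rank 10 in BM and rank 4 in ADM by summed reads. Before it in ADM were the seeds of let-7 (14.2% of reads), miR-22-3p (13.2%) and miR-21a-5p (13.0%). The other 112 rows, with 8.04% of BM and 11.0% of ADM reads, had no match and were not ranked.

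Bases 3 to 8 of the family's seed, AGUGCA, also occur 1 base earlier, at bases 2 to 7, in 3 miRNAs of the miR-130 and miR-301 family among the 516 rows with a RefSeq sequence. miR-301b-3p, with 9 reads in BM and 15 in ADM, had no match and was not compared. That family has been reported to repress the adipogenic regulator Pparg. The 3 matched sequences are printed for the overlap, with their own seed in capitals.
miR-130a-3p: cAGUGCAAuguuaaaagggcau
miR-130b-3p: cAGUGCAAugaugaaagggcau
miR-301a-3p: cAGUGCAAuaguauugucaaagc

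These relatives also lay on both sides of 0. miR-130a-3p counted 1735 reads (BM) and 1381 reads (ADM), a log2 ratio of -0.40. miR-301a-3p counted 936 and 1228 (0.33), and miR-130b-3p 108 and 216 (0.93). Their sum was 0.368% of BM and 0.357% of ADM reads (ratio 0.971, interval 0.921 to 1.02), against the ratio of 1.52 for the family's 3p arms. In both libraries the family's seed was thus the more abundant of these overlapping seeds.

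The hairpins differed widely in how far the 3p arm prevailed. miR-148a had 127 reads of 3p per read of 5p in BM (111 to 147) and 165 in ADM (146 to 188). miR-148b had 16.4 in BM (13.0 to 20.9) and 15.6 in ADM (12.9 to 19.2). miR-152 had 2.59 in BM (2.22 to 3.04) and 1.62 in ADM (1.36 to 1.93), the lowest ratio of the 3 hairpins in both libraries, with the 3p arm still the larger one. All 3p arms begin with U, while the 5p arms begin with A (miR-148a), G (miR-148b) and U (miR-152).

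Between libraries, the 3p to 5p ratio was 1.30-fold higher in ADM for miR-148a (1.07 to 1.57) and 1.60-fold lower for miR-152 (1.26 to 2.03). For miR-148b the ratio between libraries was 0.956 (0.697 to 1.31). On the log2 scale these differences were 0.38, -0.68 and -0.06. Hairpins were compared where both arms passed the minimum, stood in rows of a single miRNA under the same hairpin name and had reads in both libraries. Over these 89 hairpins, the median absolute difference was 0.49, and miR-152 ranked 30, miR-148a 57 and miR-148b 82 by size. The arm differences of the family were thus within the usual range of these hairpins. By prevalence of the 3p arm, miR-148a ranked 8 of 89 in BM and 7 in ADM, miR-148b 16 and 15, and miR-152 31 and 32; the 3p arm was the larger one in 37 of the 89 hairpins in BM.

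**Figure D3:**
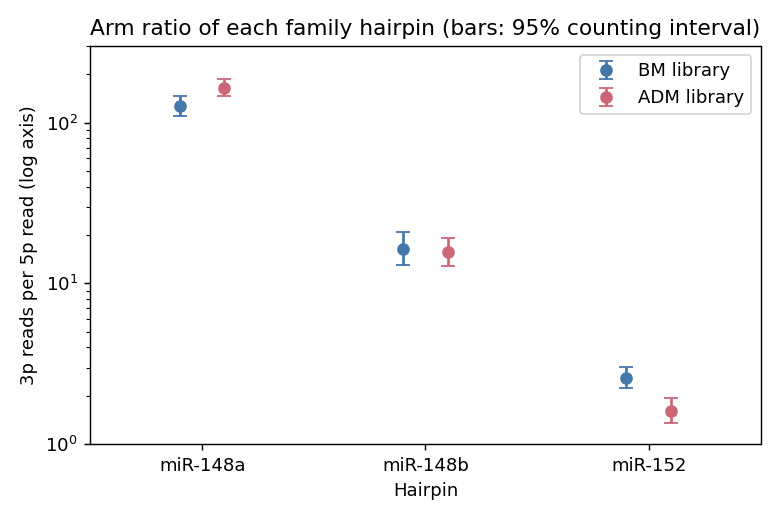
Reads of the 3p arm per read of the 5p arm for each hairpin, on a log axis, with BM in blue, ADM in red and 95% counting intervals. The hairpins stand in steps from 127 down to 2.59 in BM. The intervals of the libraries overlap for miR-148b and, narrowly, for miR-148a, but not for miR-152.

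miR-148a-3p belonged to the few miRNAs that carry most of the library. Its gain of 1.87 percentage points between BM and ADM was exceeded by those of miR-21a-5p (3.30 points) and miR-143-3p (2.49 points). Since shares sum to 100%, a gain of one miRNA lowers the others by construction. Among the 22 miRNAs with a mean of at least 1% of reads, a limit chosen after the values were seen, its log2 ratio was the fourth highest, after those of miR-30a-5p (1.06), miR-378a-3p (0.91) and miR-143-3p (0.90). All 3 of these are on the list of miRNAs reported to promote adipogenesis. That list was chosen with earlier results of these data known, so the overlap is not independent of the values.

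The miRNAs nearest to each 3p arm, by distance over log2(RPM + 1) in both libraries among 331 others above the minimum, were as follows. For miR-148a-3p they were let-7f-5p (log2 ratio 0.36), miR-143-3p (0.90) and let-7c-5p (0.60). For miR-148b-3p they were miR-181b-5p (0.28), miR-196b-5p (0.43) and miR-27a-3p (-0.01). For miR-152-3p they were miR-149-5p at 580 BM and 325 ADM reads (-0.90), miR-615-3p with 541 and 326 (-0.80) and miR-676-3p with 535 and 389 (-0.53). With 2 libraries, such likeness rests on 1 level and 1 ratio.

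**Figure D4:**
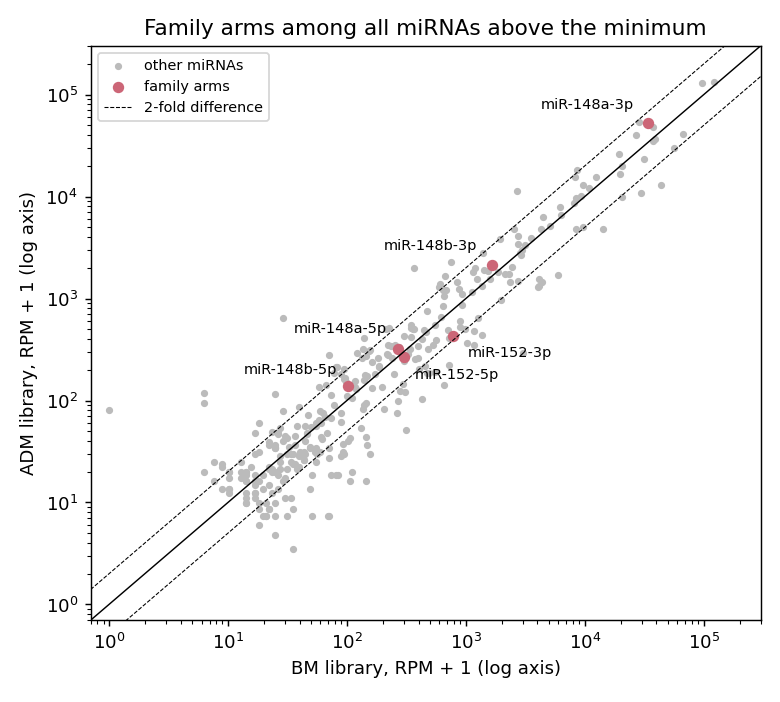
RPM + 1 of each miRNA with a mean of at least 10 RPM in BM (x) and ADM (y), both on log axes, with family arms in red, other miRNAs in grey, equality as a solid line and 2-fold differences as dashed lines. The 6 family arms lie inside the dashed lines, with miR-148a-3p near the top of the range.

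Other miRNAs reported to promote adipogenesis, a list of 25 listed arms without the family, also had mostly higher values in ADM. Of 21 arms above the minimum, 5 passed 2-fold upward and 1 downward, beside 10.7% and 20.5% of the 337, and the median log2 ratio was 0.67 beside -0.02 over all 337. Its most abundant arms were miR-21a-5p (0.42), miR-143-3p (0.90) and miR-30a-5p (1.06), and the arm with the largest ratio was miR-146b-5p with 2022 and 8973 reads (2.08). miR-148a-3p, at 0.63, was close to the median of that list, which was not chosen independently of these data.

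miRNAs reported to inhibit adipogenesis lay on both sides of 0. Of 18 arms above the minimum, 4 passed 2-fold upward and 3 downward, beside the same 10.7% and 20.5%. As with the promoting list, the higher count is above the background. The lower count, 3 of 18, is near the background, while that of the promoting list, 1 of 21, is below it. The median of these 18 arms was -0.06, also with miR-138-1-3p (0 and 63 reads) at its bound, and 0.01 with median ratio scaling. miR-27b-3p (-0.27), miR-222-3p (-1.42) and miR-221-3p (-0.11) were the most abundant, and miR-138-1-3p was the arm farthest from 1.

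The miR-29 family, reported to bind the transcripts of the methyltransferases Dnmt3a and Dnmt3b, had 4 of 5 arms above the minimum and 0 of them 2-fold apart, beside 31.2% of the 337. Its main arm, miR-29a-3p, counted 3847 BM and 4096 ADM reads (0.02, interval of the ratio 0.973 to 1.06). The next were miR-29b-3p (0.21) and miR-29c-3p (0.15), and the largest difference was that of miR-29a-5p with 30 and 24 reads (-0.38). The median was 0.09, and -0.02 under the trimmed mean scaling. The miR-130 and miR-301 list had 5 of 7 arms above the minimum, with 0 of them 2-fold apart, beside the same 31.2%, and a median of 0.49; its 3 most abundant arms are those printed above.

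In the authors' deposited table the ratio of ADM to BM is 1.55 for miR-148a-3p, 1.30 for miR-148b-3p, 0.555 for miR-152-3p, 1.19 for miR-148a-5p, 1.36 for miR-148b-5p and 0.888 for miR-152-5p. These equal the ratios computed here from the percent values, since no family arm was at 0.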

How the data were processed

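The labels' protocols name a mirVana kit, the Illumina TruSeq small RNA kit and gel selection, and the small RNA libraries were run on a MiSeq. The authors deposited each miRNA as a percent of reads from miRanalyzer, per the file headers. The submitters' processing notes name the build mm10; the sources used here give neither aligner settings nor the handling of multiply mapping reads. In the second deposited table each 0 is replaced by the value of 0.5 read, and it holds a ratio (ADM over BM) and its log2, headed ln2 by the authors.

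Within each column, all percent values were whole multiples (tolerance 0.001 read) of the lowest nonzero value, taken as 1 read. RPM is percent times 10000. Libraries were compared by log2((ADM + 1)/(BM + 1)) in RPM, with a mean minimum of 10 RPM and a 2-fold threshold; it understates differences of low miRNAs. Ratios with intervals use no pseudocount. Scripts (Python 3.11.15, SciPy 1.17.1) were tested on simulated data. Named besides the family are the 3 nearest miRNAs of each 3p arm. Of each list other than the markers, the 3 most abundant arms and the one with the largest difference are named. Arms named from the marker lists were not chosen by this rule. Members and lists were chosen with earlier results of these data known. Alternatives were pseudocounts, minimums, thresholds, scalings, all arms and the second table. Positions are from RefSeq and GENCODE M21 (GRCm38, the assembly of mm10). One neighbouring gene group is not reported here.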

Additional observations from a re-analysis of the deposited data

How the results depend on the processing

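Of 34 alternatives to the family's results, 26 stayed within counting error or, for counts, within 1.5 times. The trimmed mean of M values shifted all log2 ratios by -0.10, which put miR-148a-3p at 0.53, below 1.5-fold, and the summed 3p ratio at 1.41. Median ratio scaling put them at 0.70 and 1.58. No family arm changed its side of 0 under either scaling. Without miR-148a-3p, an alternative chosen after the data were seen, the summed 3p ratio was 1.06. Taken over all family arms, miR-148a-3p had 91.7% of the reads in BM and 94.1% in ADM. With a 1.5-fold threshold 2 members were apart and with a 3-fold threshold 0, by construction. Taking as 100% the reads outside the 10 most abundant other miRNAs, also chosen after the data were seen, moved no result beyond these limits. No paired analysis was possible because each medium has 1 library. Depth limits the 5p arms most, with 76 to 252 reads each: a ratio of 1.19 for miR-148a-5p could not be told from 1.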
